A study of Mus musculus with 14 samples.

Results

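The mitosis genes are 40 genes whose proteins carry a cell through mitosis, from entry and chromosome condensation to cytokinesis. They were taken from a list of symbols, and each symbol was matched to 1 gene identifier in the count tables, so that they make up 40 of the 55487 genes counted. They are described in 9 role groups: entry cyclins and their kinase, mitotic kinases, the chromosomal passenger complex, the spindle checkpoint, mitotic exit, the kinetochore, the spindle, cytokinesis and the chromosome.

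As background, mitosis genes are transcribed late in the cell cycle, shortly before a cell divides, and are held low in cells that have left the cycle. Cyclin-dependent kinase with the B-type cyclins starts mitosis, Polo-like and Aurora kinases build the spindle, and the anaphase-promoting complex ends mitosis by marking cyclins and securin for destruction. In bone marrow, progenitors committed to a lineage divide more often than the most immature stem cells, so that these transcripts are widely read as a sign of cycling cells.

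The study asked what interleukin-1β (IL-1β), an inflammatory cytokine, does to blood progenitors that carry an activating mutation of the kinase Jak2, and to bone marrow stromal cells. RNA was sequenced after removal of ribosomal RNA from 14 libraries in 6 groups. Of these, 10, here the sorted libraries, came from C57BL/6 mice with heterozygous Jak2V617F (Mx1Cre; Jak2VF/+, with Cre induced by pI-pC). Per the study's description, marrow of such mice had been transplanted into lethally irradiated C57BL/6 recipients. The mice received PBS or 0.5 µg of IL-1β per dose by intraperitoneal injection, 3 doses a week for 16 weeks, and lineage-depleted marrow was then sorted into LSK cells (lineage-negative, Sca1-positive, c-kit-positive) and LK cells (lineage-negative, c-kit-positive, which the labels call MP(LK)); the labels do not say that Sca1-positive cells were removed from the LK gate. All sorted groups, PBS included, carry the Jak2 mutation and there is no group without it. The other 4 libraries, labelled MSC for mesenchymal stromal cells, were cultured for 21 days from the marrow of C57BL/6 mice and given PBS or 5 ng/ml IL-1β for 72 h. The labels give no ages and do not say whether replicates are separate animals or cultures, so each p measures the spread between libraries.

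There were 3 LSK and 3 LK libraries with PBS, 2 of each with IL-1β, and 2 cultures of each treatment. The LSK libraries held 12172400, 13241793 and 16271408 counted read pairs with PBS, and the IL-1β ones 8641124 and 4393233. The LK libraries held 12804883, 18544346 and 13992210 with PBS, and the IL-1β ones 7652483 and 6367352. The MSC libraries with PBS, which are replicates 2 and 3, held 5834909 and 13155033, and those with IL-1β 30871055 and 11681794. The shallowest library was thus IL-1β replicate 2 of the LSK cells and the deepest was IL-1β replicate 1 of the cultures. Throughout, values are listed in the order of the replicate numbers, which carry no rank.

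Except where TPM is named, as for the markers that check the labels, values of a gene across libraries are given as CPM, counts per 1e6 counted read pairs. CPM are scaled by TMM, a method that removes differences in composition. The 10 sorted libraries were scaled together and the 4 cultures together, so CPM are not compared between these sets. Levels of different genes are compared only in TPM, which divides counts by gene length before scaling to a fixed total. Differences are log2 fold changes from the edgeR quasi-likelihood test across all genes, with a standard error (SE) and a Benjamini-Hochberg adjusted p. A gene was called, and is said here to have risen or fallen, at an adjusted p under 0.05 together with a log2 fold change beyond 0.5 in either direction. Where counts at an unadjusted p under 0.05 are given, they stand beside 2431 of 13132 genes with IL-1β in LSK cells, 3176 of 12835 in LK cells and 3968 of 13239 in MSC cultures. For LSK against LK cells the number was 5499 of 12737 with PBS and 3263 of 11743 under IL-1β, and for the interaction 1967 of 13839.

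The labels were checked against defining markers. Ly6a, which encodes Sca1, stood at 93.8, 103 and 89.6 TPM in the LSK libraries with PBS and 35.7 and 54.0 TPM with IL-1β. In the LK libraries Ly6a stood at 1.19, 0.734 and 2.09 TPM with PBS and 5.16 and 1.66 TPM with IL-1β, so every LSK library lay above every LK library. Kit, which encodes c-kit, was present in all 10 sorted libraries, at 259.9, 139 and 227 TPM in LSK cells and 65.6, 115 and 122 TPM in LK cells with PBS. TPM depend on what else is in the total. In LK PBS replicate 1 the mitosis genes summed to 2679 TPM, and to 4393 TPM with 2 short RNAs left out of the total.

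The libraries labelled MSC go against their label in part. Their most abundant macrophage gene was Lyz2, which encodes lysozyme, at 16626 and 10467.00 TPM with PBS and 45194 and 45912 TPM with IL-1β. The surface protein gene Adgre1, a macrophage marker, stood at 726 and 579 TPM with PBS and 1616 and 1621 TPM with IL-1β, and the pan-leukocyte gene Ptprc at 49.8 and 47.2 TPM and 66.7 and 65.7 TPM. All 14 macrophage markers had counts in all 4 cultures. Of the stromal markers, Col1a1 stood at 381 and 177 TPM with PBS and 495 and 580.4 TPM with IL-1β, and Acta2 at 1081 and 429 TPM with PBS and 317 and 324 TPM with IL-1β, so that Acta2 was above Adgre1 in PBS replicate 2. Lepr was at 0 in both PBS cultures and Nt5e was under 1 TPM in all 4. Of the 14 mesenchymal markers, 1 and 2 had no counts in the PBS cultures and 0 lacked counts in the IL-1β cultures. They are called MSC cultures below as a label and not as a cell type.

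Across the study, the mitosis genes were most abundant in the sorted progenitors. They took 0.666, 0.529 and 0.520% of all counts in the LSK libraries with PBS and 0.618, 0.610 and 0.545% in the LK libraries with PBS. With IL-1β the shares were 0.540 and 0.480% in LSK cells and 0.522 and 0.551% in LK cells. In the MSC cultures they took 0.0658 and 0.0657% under PBS and 0.0425 and 0.0422% under IL-1β. Every sorted library thus lay far above every culture in this share.

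In TPM, 39 of the 40 genes were higher in every sorted library than in every culture, and the median ratio of the mean sorted level to the mean culture level was 15.6. These ratios are a description with no test, since sorted cells and cultures were prepared apart and no group pairs them. The ratio was highest for Cdc25c, the phosphatase that activates the mitotic kinase, at 34.8, followed by Cenpf, a large kinetochore protein, at 29.4. Cdc25c had only 3 and 15 read pairs in the PBS cultures and 22 and 7 in the IL-1β cultures. Its ratio and rank thus rest on low counts. The exception was Pttg1, which encodes securin, the inhibitor of chromatid separation, with a mean of 32.4 TPM in the sorted libraries, 49.8 TPM in the cultures and a ratio of 0.651. The checkpoint gene Bub3 had a ratio of 2.06 and Cdc25b, a phosphatase that helps to start mitosis, a ratio of 2.64.

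By mean TPM over the 10 sorted libraries, the most abundant mitosis gene was Cdc20, the activator of the anaphase-promoting complex, at 334 TPM with a range of 226 to 405 TPM. Next came the cyclin gene Ccnb2 at 249 TPM (196 to 289) and Top2a, the topoisomerase that untangles chromosomes, at 232 TPM (141 to 407). The highest value of Top2a lay above that of Cdc20, so Cdc20 did not lead in every sorted library. The ranges of these neighbours overlap, and so does that of Mki67, which codes for a protein that coats mitotic chromosomes, at 180.0 TPM (54.5 to 346). The least abundant were Cdc25c at 15.5 TPM, the kinetochore gene Ndc80 at 20.4 TPM and Cenpf at 21.3 TPM. In the cultures the order differed: Pttg1 was followed by Bub3 at 39.5 TPM and by Incenp, the scaffold of the chromosomal passenger complex, at 34.4 TPM, while Cdc20 stood at 12.7 TPM and Top2a at 8.601 TPM.

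Sums over the 40 genes are given in CPM here, since the total to which TPM are scaled contains the short RNA gene Gm23935, at between 9672 and 351695 TPM in the sorted libraries. The TPM ranges given above are scaled to the same total. The summed CPM of the 40 genes was 6139, 5431 and 4930.3 CPM in LSK cells with PBS, and in those with IL-1β it was 5518 and 5163 CPM. In LK cells it was 6321, 5829 and 5471 CPM with PBS and 5306 and 5645 CPM with IL-1β. The 4 sorted groups overlap in this sum, and in LK cells the IL-1β libraries lay on either side of the lowest PBS library.

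IL-1β against PBS in the MSC cultures addresses what the cytokine does to cells grown from marrow. Of the 39 mitosis genes tested, 13 were called lower, where 4.31% of all 13239 genes tested were, and 0 were called higher, where 7.14% of all genes were. The median log2 fold change of the 39 was -0.70, beside 0.00 for all genes tested, and 36 of 39 had a negative value. In 33 of 39 both IL-1β cultures lay below both PBS cultures, which held for 29.8% of all genes tested and happens by chance in 16.7% of orderings of 4 libraries. Cdc25c was left out of the test for low counts, at 0.500 and 1.13 CPM in the PBS cultures and 0.721 and 0.618 CPM in the IL-1β cultures. Summed over the 40 genes, the level was 641 and 651 CPM with PBS and 430.4 and 435 CPM with IL-1β. In these bulk samples, fewer cells of a type and less RNA per cell cannot be told apart.

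**Figure D1:**
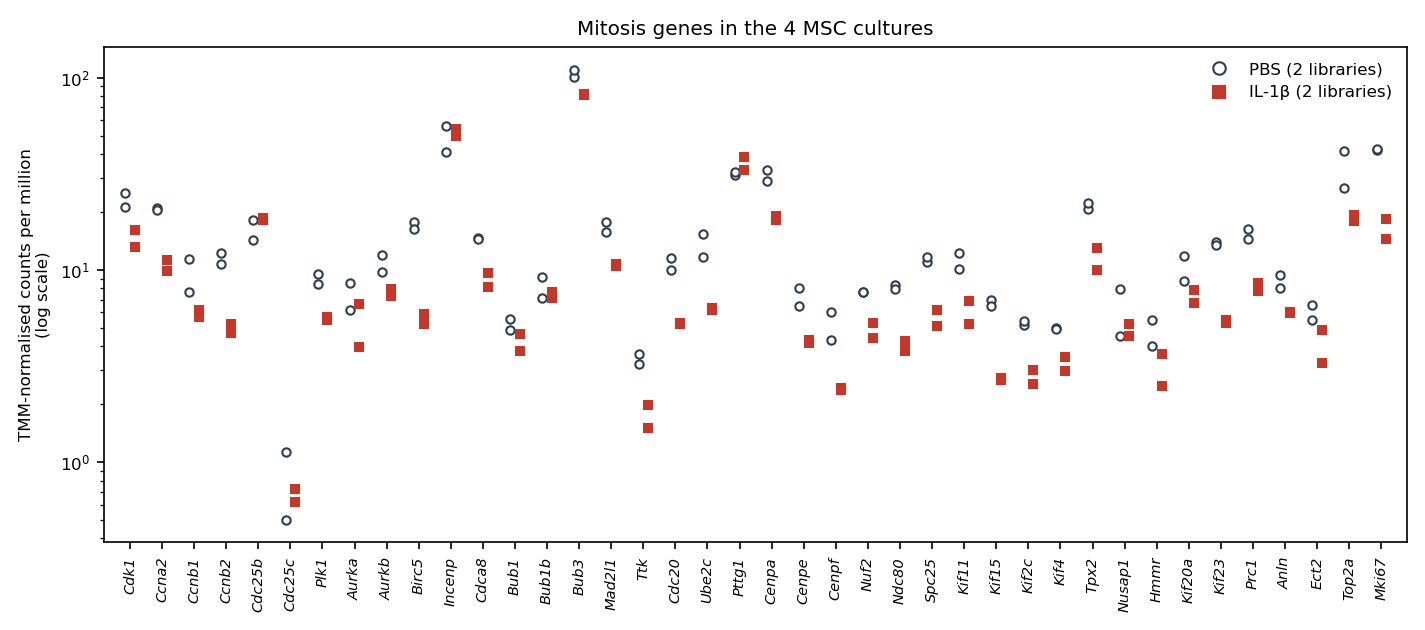
TMM-scaled CPM (log scale) of each mitosis gene in the 4 MSC cultures, open circles for the 2 PBS cultures and filled squares for the 2 IL-1β cultures, in the order of the role groups. For 33 of the 39 genes tested both squares lie below both circles, and Incenp, Cdc25b and Pttg1 had a positive log2 fold change.

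Among the entry genes, Ccna2, the cyclin of DNA replication and early mitosis, stood at 21.0 and 20.5 CPM in the PBS cultures and 9.87 and 11.3 CPM in the IL-1β cultures. Its groups did not overlap, and it fell with a log2 fold change of -0.98 (SE 0.16, adjusted p = 0.0194). Ccnb2, a B-type cyclin that activates the mitotic kinase, stood at 12.2 and 10.7 CPM in the PBS cultures and 4.69 and 5.21 CPM in the IL-1β cultures. Both IL-1β cultures were under the lower PBS culture, and Ccnb2 fell by 1.21 on the log2 scale (SE 0.21, adjusted p = 0.0221). Cdk1, the mitotic kinase itself, stood at 21.2 and 25.1 CPM in the PBS cultures and 13.1 and 16.1 CPM in the IL-1β cultures, also without overlap, but its log2 fold change of -0.68 was not called (adjusted p = 0.0607). Ccnb1, the other B-type cyclin, had -0.65 (adjusted p = 0.159). Cdc25b differed from the rest of the group: it stood at 14.3 and 18.2 CPM in the PBS cultures and 18.6 and 18.3 CPM in the IL-1β cultures, with a log2 fold change of 0.17 (adjusted p = 0.556).

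Of the mitotic kinases, Plk1, the Polo-like kinase of spindle assembly, stood at 9.504 and 8.43 CPM in the PBS cultures and 5.51 and 5.65 CPM in the IL-1β cultures. The groups did not overlap, and the log2 fold change of -0.68 (95% CI -1.19 to -0.17) was not called (adjusted p = 0.0911). Aurka, the kinase of the spindle poles, stood at 6.17 and 8.51 CPM in the PBS cultures and 6.62 and 3.97 CPM in the IL-1β cultures, where the groups overlap, with a log2 fold change of -0.46. In the chromosomal passenger complex, which corrects the attachment of chromosomes, Birc5 (survivin, its targeting subunit) stood at 17.8 and 16.3 CPM in the PBS cultures and 5.87 and 5.21 CPM in the IL-1β cultures. Every IL-1β culture was at less than every PBS culture, and Birc5 had the largest fall of the 39, with a log2 fold change of -1.61 (SE 0.18, adjusted p = 0.00738). The subunit gene Cdca8 stood at 14.7 and 14.5 CPM in the PBS cultures and 9.67 and 8.12 CPM in the IL-1β cultures and the kinase gene Aurkb at 12.005 and 9.79 CPM in the PBS cultures and 7.97 and 7.32 CPM in the IL-1β cultures. Neither overlapped between treatments and neither was called, with log2 fold changes of -0.70 (adjusted p = 0.0580) and -0.49 (adjusted p = 0.169). Incenp stood at 56.4 and 40.8 CPM in the PBS cultures and 49.97 and 53.9 CPM in the IL-1β cultures, where the groups overlap, with 0.11 on the log2 scale.

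None of the 5 spindle checkpoint genes, which hold back anaphase until all chromosomes are attached, was called by edgeR as set out above in the cultures, with 3 of 5 at an unadjusted p under 0.05, all of them negative, and 0 by DESeq2. Mad2l1, the inhibitor of Cdc20, stood at 17.7 and 15.8 CPM in the PBS cultures and 10.5 and 10.7 CPM in the IL-1β cultures, without overlap, and missed the threshold with a log2 fold change of -0.66 (adjusted p = 0.0521). It was called in other edgeR fits, with DESeq2 size factors, upper-quartile factors, no filter and the length correction (adjusted p = 0.0496, 0.0413, 0.0384 and 0.0437). Bub1b, its partner in the checkpoint complex, stood at 9.17 and 7.15 CPM in the PBS cultures and 7.12 and 7.68 CPM in the IL-1β cultures, where the groups overlap, with -0.13. Bub3, Bub1 and the kinase gene Ttk had log2 fold changes of -0.37, -0.30 and -0.96. Among the genes of mitotic exit, Cdc20 stood at 11.5 and 10.0 CPM in the PBS cultures and 5.31 and 5.21 CPM in the IL-1β cultures. The IL-1β cultures were close together and below both PBS cultures, and Cdc20 fell with -1.02 (SE 0.20, adjusted p = 0.0324), a call lost with the length correction (log2 fold change -0.82, adjusted p = 0.0648). Ube2c, the ubiquitin-conjugating enzyme of the anaphase-promoting complex, stood at 11.7 and 15.3 CPM in the PBS cultures and 6.36 and 6.18 CPM in the IL-1β cultures. Both of its IL-1β cultures also lay below both PBS cultures, and it fell with -1.12 (SE 0.21, adjusted p = 0.0280). Pttg1 stood at 31.2 and 32.2 CPM in the PBS cultures and 33.0 and 38.6 CPM in the IL-1β cultures, with all of the IL-1β cultures above the PBS cultures and a log2 fold change of 0.17 that was not called (adjusted p = 0.434).

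In the kinetochore group, which joins chromosomes to microtubules, all 6 genes had a negative value and 3 were called. Cenpa, the histone variant that marks centromeres, stood at 33.2 and 28.9 CPM in the PBS cultures and 19.1 and 18.1 CPM in the IL-1β cultures. Ndc80, the microtubule-binding subunit, stood at 8.34 and 7.91 CPM in the PBS cultures and 4.26 and 3.79 CPM in the IL-1β cultures, and Spc25, of the same complex, at 11.004 and 11.6 CPM in the PBS cultures and 5.12 and 6.18 CPM in the IL-1β cultures. In all 3 the treatments did not overlap. The log2 fold change was -0.73 (SE 0.14, adjusted p = 0.0274) for Cenpa, -0.998 (SE 0.23, adjusted p = 0.0441) for Ndc80 and -1.02 (SE 0.21, adjusted p = 0.0339) for Spc25. Nuf2, the partner of Ndc80, the motor gene Cenpe and Cenpf had -0.67, -0.79 and -1.12 and were not called.

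All 7 spindle genes had a negative value in the cultures and 2 were called. Kif15, a motor that keeps the spindle bipolar, stood at 7.003 and 6.48 CPM in the PBS cultures and 2.66 and 2.74 CPM in the IL-1β cultures, and Tpx2, the activator of Aurora A, at 20.7 and 22.2 CPM in the PBS cultures and 10.0 and 12.97 CPM in the IL-1β cultures. Both showed all IL-1β cultures below all PBS cultures, and they fell with -1.32 (SE 0.26, adjusted p = 0.0320) and -0.92 (SE 0.18, adjusted p = 0.0331). Hmmr, a microtubule-associated protein, stood at 5.50 and 3.99 CPM in the PBS cultures and 3.64 and 2.47 CPM in the IL-1β cultures, with -0.59 (adjusted p = 0.319), and its groups came close to each other without overlap. The other 4, the motor genes Kif11, Kif2c and Kif4 and the microtubule bundler Nusap1, had -0.86, -0.91, -0.61 and -0.41.

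Of the 5 cytokinesis genes, Kif23 and Prc1, which organise the central spindle where the cell divides, were called. Kif23 stood at 14.01 and 13.5 CPM in the PBS cultures and 5.51 and 5.29 CPM in the IL-1β cultures, and Prc1 at 14.5 and 16.3 CPM in the PBS cultures and 7.74 and 8.56 CPM in the IL-1β cultures. Each had both IL-1β cultures well below both PBS cultures, and Kif23 fell with -1.34 (SE 0.18, adjusted p = 0.0120) while Prc1 fell with -0.93 (SE 0.18, adjusted p = 0.0287). Kif20a, the motor that brings the passenger complex to the central spindle, stood at 11.8 and 8.74 CPM in the PBS cultures and 6.72 and 7.85 CPM in the IL-1β cultures, without overlap, and was not called at -0.49 (adjusted p = 0.227). Anln, a scaffold of the contractile ring, and Ect2, an activator of the GTPase RhoA, had -0.55 and -0.56. Of the chromosome genes, Mki67 stood at 41.8 and 42.4 CPM in the PBS cultures and 18.3 and 14.4 CPM in the IL-1β cultures. The treatments did not overlap, and Mki67 fell with -1.35 (SE 0.15, adjusted p = 0.00762). Top2a stood at 26.7 and 41.3 CPM in the PBS cultures and 18.0 and 19.2 CPM in the IL-1β cultures, with PBS replicate 3 well above the rest, and its log2 fold change of -0.89 was not called (adjusted p = 0.0541).

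The test was edgeR with 2 cultures against 2. DESeq2 also called 13 mitosis genes lower, 12 of them the same, with Top2a in place of Ndc80 (adjusted p = 0.0168 and 0.0785). With the length correction 14 were called lower, 12 of them the same, without Cdc20. The count rests on having both IL-1β cultures: without IL-1β replicate 1, 0 mitosis genes were called, with adjusted p from 0.0883 to 0.428 for the 13, and without IL-1β replicate 2, 0 were called, with adjusted p from 0.0989 to 0.410. In those fits 38 and 80 genes in all were called higher and 0 and 2 lower, and the lone IL-1β culture was assumed to vary like the PBS cultures. Without PBS replicate 2, 25 mitosis genes were called lower, and without PBS replicate 3, 22 were, each time with the same 13 among them. All genes moved in the same way in those fits, with 1781 of 14006 and 1155 of 13645 called lower beside 570 of 13239 with all libraries, and the lone PBS culture was assumed to vary like the IL-1β cultures. The median log2 fold change of the mitosis genes ranged from -0.82 to -0.69 over these 4 fits. Over the 7 settings with all libraries, 13 to 19 mitosis genes were called lower and 0 higher, with Mad2l1, Top2a, Cdk1, Cdca8, Cenpf and Kif11 each added in at least 1 of them. All genes called lower moved as well. They ran from 420 of 13239 with the length correction to 831 of 13239 with upper-quartile factors and 915 of 22527 with no filter.

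Marker genes of other cells moved with the treatment in the same cultures. Of 14 macrophage markers, 7 were called higher and 0 lower, and their summed level was 18871 and 14803 CPM with PBS and 35645 and 36507 CPM with IL-1β. Lyz2 was the most abundant of them in all 4 cultures. Of 14 mesenchymal markers, 12 were tested, 1 was called higher and 0 lower, and their sum was 3795 and 1884 CPM with PBS and 4266 and 4774 CPM with IL-1β, the most abundant being Acta2 with PBS and Col1a1 with IL-1β. Of the neutrophil granule markers 3 of 4 tested were called higher and 0 lower, of the megakaryocyte markers 2 of 3 higher, of the lymphoid markers 1 of 2 lower, of the progenitor markers 1 of 2 lower, and of the stem cell, erythroid and endothelial markers 0 by edgeR. The share of mitochondrial counts also differed, at 1.28 and 1.57% with PBS and 0.941 and 0.579% in the IL-1β cultures, without overlap. The part of these markers and of this share in the values of the mitosis genes was not tested.

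Other genes of the cell cycle were read from lists of 7 kinds, beside 4.31% of all genes called lower and 7.14% higher in the cultures. In the cultures, 10 of 43 DNA replication genes tested were called lower and 0 higher, with a median log2 fold change of -0.48 and 39 of 43 negative. Pcna, the sliding clamp of DNA polymerase, stood at 467 and 683 CPM in the PBS cultures and 217 and 198 CPM in the IL-1β cultures. Rrm2, a subunit of the enzyme that makes deoxyribonucleotides, stood at 32.5 and 26.4 CPM in the PBS cultures and 11.8 and 12.3 CPM in the IL-1β cultures. Both had all IL-1β cultures below all PBS cultures, and the log2 fold changes were -1.47 (SE 0.20, adjusted p = 0.0119) and -1.28 (SE 0.16, adjusted p = 0.00979). Of 10 CDK inhibitors and D cyclins, 5 were called lower and 0 higher. Ccnd1, a cyclin of entry into the cycle, stood at 210.4 and 273 CPM in the PBS cultures and 80.1 and 75.5 CPM in the IL-1β cultures, and Cdkn2a, a locus of cycle inhibitors, at 74.2 and 60.2 CPM in the PBS cultures and 31.7 and 32.7 CPM in the IL-1β cultures. The libraries did not overlap for either, with log2 fold changes of -1.64 (SE 0.15, adjusted p = 0.00416) and -1.05 (SE 0.14, adjusted p = 0.0102), so that both a driver and an inhibitor of the cycle were lower.

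Within the machinery of mitosis outside the 40 genes, 3 of 16 anaphase-promoting complex genes were called lower in the cultures and 0 higher, with a median close to 0. The subunit gene Anapc15 stood at 72.4 and 92.4 CPM in the PBS cultures and 35.1 and 32.1 CPM in the IL-1β cultures and Anapc13 at 46.2 and 38.6 CPM in the PBS cultures and 17.6 and 24.9 CPM in the IL-1β cultures. Neither overlapped, and they fell with -1.297 (SE 0.15, adjusted p = 0.00775) and -1.01 (SE 0.20, adjusted p = 0.0325). Of 20 further centrosome and spindle genes, 3 were called lower and 0 higher (median -0.45). Among these, Kif22, a motor on chromosome arms, stood at 10.7 and 10.3 CPM in the PBS cultures and 5.54 and 5.47 CPM in the IL-1β cultures, and Racgap1, the partner of Kif23, at 17.2 and 18.2 CPM in the PBS cultures and 11.1 and 9.44 CPM in the IL-1β cultures. They fell with -0.93 (SE 0.19, adjusted p = 0.0361) and -0.78 (SE 0.17, adjusted p = 0.0401). Of 25 further kinetochore genes tested, 1 was called lower, Spc24, the partner of Spc25, at 6.17 and 4.14 CPM in the PBS cultures and 1.74 and 1.76 CPM in the IL-1β cultures and a log2 fold change of -1.53 (SE 0.35, adjusted p = 0.0465). Of 18 condensin and cohesin genes, 1 was called, and it was higher: Ncapg2, a condensin subunit, at 45.5 and 35.0 CPM in the PBS cultures and 151 and 140.0 CPM in the IL-1β cultures, with 1.87 (SE 0.15, adjusted p = 0.00291). None of 17 regulators of mitotic genes was called by edgeR, with 4 at an unadjusted p under 0.05 and a median of -0.16.

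IL-1β against PBS in LSK and LK cells addresses what long exposure to the cytokine does to Jak2-mutant stem and progenitor cells in the animal. In LSK cells none of the 40 mitosis genes was called by edgeR in either direction, where 0.32% of all genes tested were called higher and 0.312% lower. At an unadjusted p under 0.05 there were 4 of them, 3 positive and 1 negative, beside 2431 of all 13132 genes tested, and DESeq2 called 0. The median log2 fold change of the 40 was 0.03, beside -0.06 for all genes tested, and the values ran from -0.91 to 0.89. The 95% confidence interval lay within 1 log2 unit of 0 for 26 of 40 and reached beyond it for the rest. Both IL-1β libraries lay above all PBS libraries in 9 of the 40, beside 16.7% of all genes tested. They lay below all PBS libraries in 4 of the 40, beside 22.8% of all genes.

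In LK cells the libraries were closer together, and again none of the 40 was called by edgeR, where 6.77% of all genes tested were called higher and 2.57% lower. At an unadjusted p under 0.05 there were 5 of them, 1 positive and 4 negative, beside 3176 of all 12835 genes tested, and DESeq2 called 0 higher and 1 lower, Mki67. The median log2 fold change was -0.03 for the 40 and -0.03 for all genes tested, and the values ran from -0.52 to 0.31. The confidence interval lay within 1 log2 unit of 0 for 40 of 40. Both IL-1β libraries lay above all PBS libraries in 3 of the 40, beside 23.4% of all genes tested. They lay below all PBS libraries in 10 of the 40, beside 22.4% of all genes. With the replicate number as a block in the model, 2 were called lower, Mki67 (log2 fold change -0.65, adjusted p = 0.000997) and Cenpa (log2 fold change -0.57, adjusted p = 0.00130). In that fit PBS replicate 3, which has no IL-1β library of its number, does not enter the difference, and the numbers show no pairing of PBS with IL-1β libraries in LK cells (r of -0.102 and 0.0333 for numbers 1 and 2). Over the 10 settings with all libraries the adjusted p ran from 9.6e-05 to 0.555 for Mki67 and 0.000501 to 0.428 for Cenpa. All genes moved as well, with 1484 higher and 884 lower of 13596 called with the block. Without PBS replicate 3, with 1499 higher and 910 lower of 12216 genes called, the same 2 were called (adjusted p = 0.000592 and 0.00137).

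**Figure D2:**
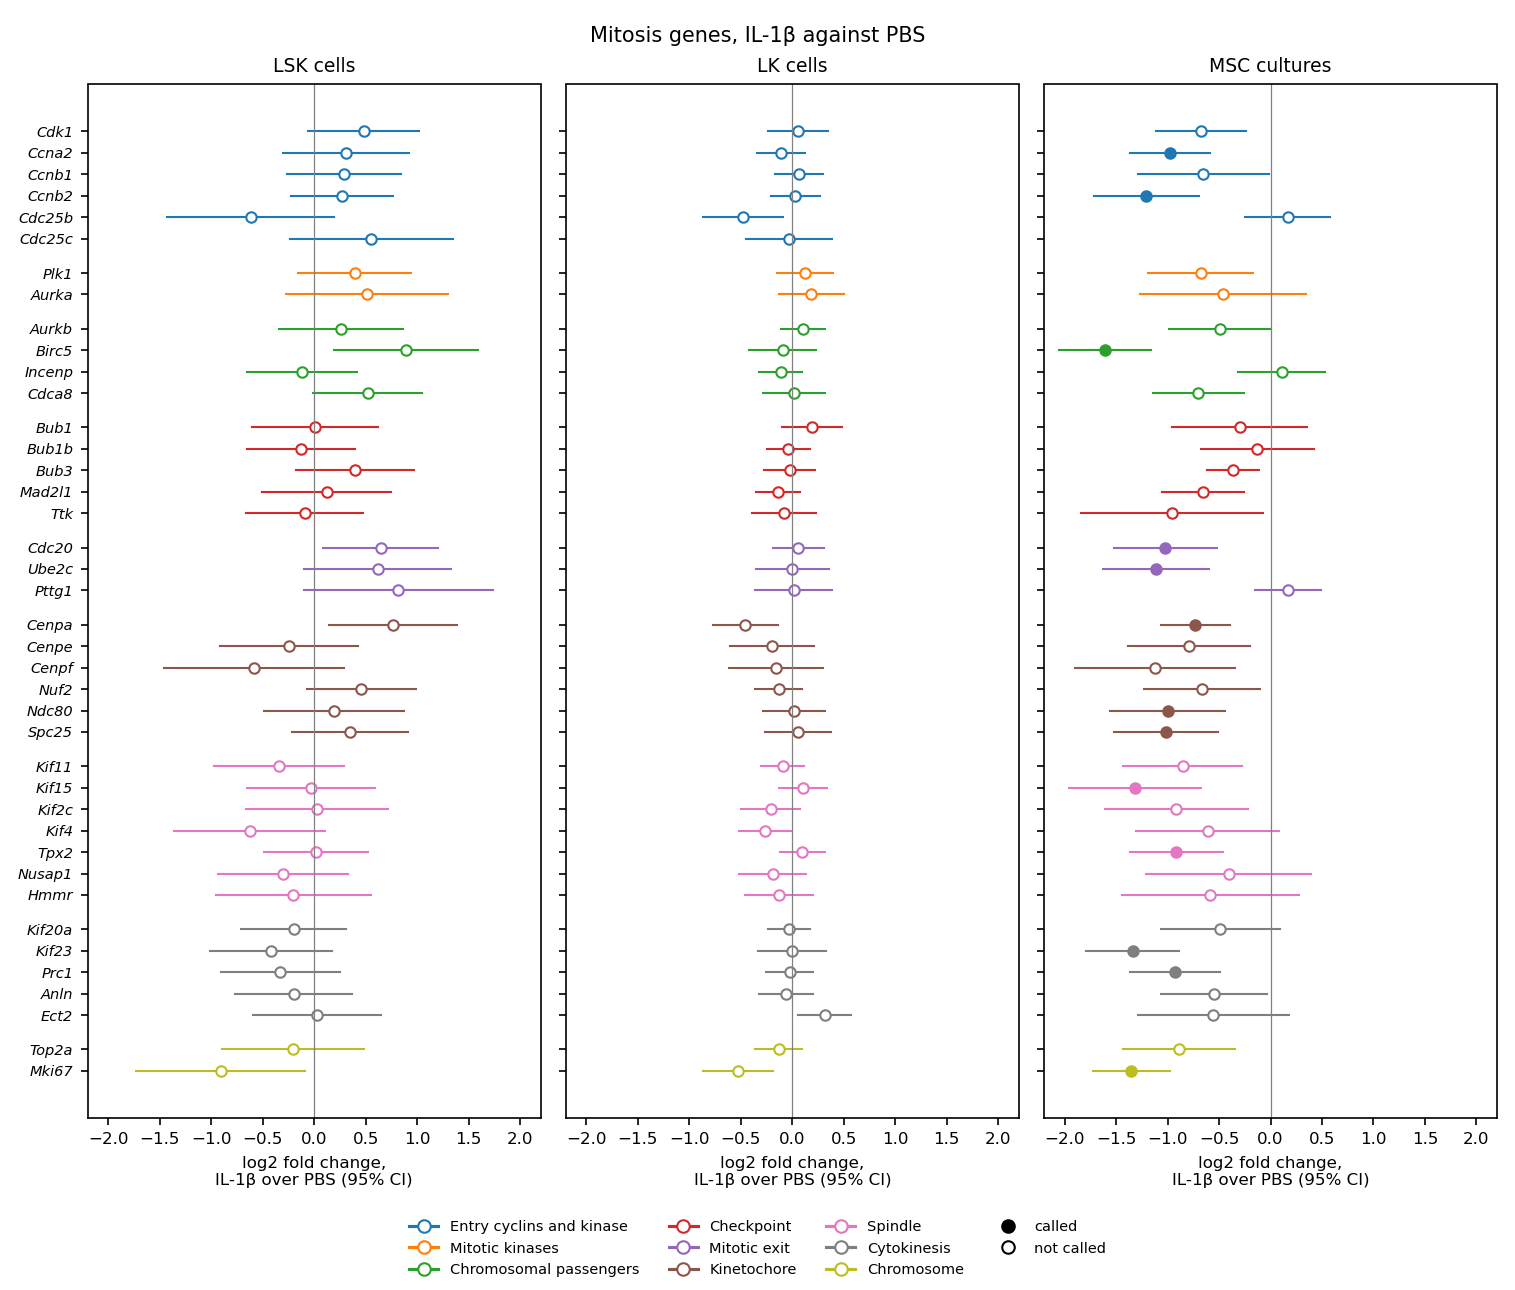
Log2 fold change of IL-1β over PBS for each mitosis gene, with its 95% confidence interval, in LSK cells (3 PBS and 2 IL-1β libraries), LK cells (3 and 2) and MSC cultures (2 and 2); filled points were called and colours mark role groups. Filled points appear in the MSC cultures alone, where 13 lie below 0.

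Markers of mature blood cells differed with IL-1β in both sorted populations. Of the neutrophil granule markers, 5 of 12 tested were called higher in LSK cells and 9 of 13 in LK cells, and 0 lower in either. Their summed level was 2497, 2209 and 3213 CPM in LSK cells with PBS and 10211 and 12254 CPM with IL-1β, and 4548, 5713 and 9811 CPM in LK cells with PBS and 22398 and 19050.0 CPM with IL-1β, with Mpo, the myeloperoxidase gene, the most abundant in all 10. Of 15 erythroid markers, 6 were called lower in LK cells and 0 higher, with sums of 7399.9, 6251 and 5489 CPM with PBS and 3530.0 and 4002 CPM with IL-1β, and Car1, a carbonic anhydrase gene, the most abundant. In LSK cells 0 of 13 erythroid markers tested were called by edgeR, and 2 of 10 stem cell markers were called lower, with sums of 1494, 1132 and 1476 CPM with PBS and 656 and 642 CPM with IL-1β and Cd34 the most abundant. Of the lymphoid markers 1 of 3 tested was called lower in LSK cells and 1 of 2 in LK cells, and of the megakaryocyte markers 1 of 7 and 1 of 6. Of the stem cell markers 1 was called higher and 2 lower of 10 in LK cells, of the macrophage markers 2 higher and 1 lower of 12, and of the mesenchymal markers 1 higher and 1 lower of 5, whereas 0 macrophage and 0 mesenchymal markers were called by edgeR in LSK cells. None of the 4 progenitor markers or of the endothelial markers was called by edgeR in either. The share of mitochondrial counts was also lower in every IL-1β library than in every PBS library, at 0.294, 0.147 and 0.524% with PBS and 0.106 and 0.0911% under IL-1β in LSK cells and at 0.710, 1.36 and 0.529% with PBS and 0.417 and 0.508% under IL-1β in LK cells, and with PBS every LSK library lay under every LK library. The part of these markers and of this share in the values of the mitosis genes was not tested.

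LSK against LK cells compares more immature with more committed progenitors. With PBS, 6 of 40 mitosis genes were called lower in LSK cells, where 12.8% of all genes tested were, and 2 were called higher, where 18.4% of all genes were, so that the share called lower was near that of all genes and the share called higher was under it. The median log2 fold change of the 40 was -0.16, beside 0.04 for all 12737 genes tested. There were 15 of the 40 at an unadjusted p under 0.05, 3 positive and 12 negative, beside 5499 of all genes. Under IL-1β, 1 of 40 was called higher, where 4.18% of all genes were, and 0 lower, where 4.14% of all genes were, with 8 at an unadjusted p under 0.05, 4 in each direction, beside 3263 of all genes, and 2 higher and 0 lower by DESeq2. The median there was -0.03, beside -0.02 for all 11743 genes tested. With PBS, all LSK libraries lay above all LK libraries in 1 of the 40, beside 27.3% of all genes tested. They lay below all LK libraries in 13 of the 40, beside 22.8% of all genes. Under IL-1β the numbers were 9 above, beside 28.3% of all genes, and 12 below, beside 31.2%. Markers of several cell types separate the populations more widely. With PBS, 14 of 15 erythroid markers were called lower in LSK cells, and 9 of 10 stem cell markers were called higher and 1 lower. Neutrophil granule markers were lower for 6 of 9, megakaryocyte markers higher for 4 of 6 and endothelial markers higher for 3 of 3. Also called higher were 2 of 4 progenitor, 1 of 3 lymphoid and 2 of 4 mesenchymal markers. Of 12 macrophage markers, 2 were called higher and 1 lower. Under IL-1β, 6 of 10 stem cell markers were called higher and 0 lower. The part of the markers in the values of the mitosis genes was not tested.

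Whether LSK and LK cells respond differently to IL-1β was tested with an interaction term. None of the 40 was called by edgeR at an adjusted p under 0.05, where 0.0289% of all 13839 genes tested were, with 3 at an unadjusted p under 0.05, all positive, beside 1967 of all genes. DESeq2 called 1, Cenpa, with a log2 difference of 1.25 (adjusted p = 0.0223); the edgeR value was 1.19 (SE 0.32, adjusted p = 0.175). Over the 9 settings with all libraries the adjusted p ran from 0.00755 to 0.176. Leaving out IL-1β replicate 1 of the LSK cells called Cenpa (adjusted p = 0.0387), and leaving out PBS replicate 2 of the LSK cells called Birc5 (adjusted p = 0.0393). All genes moved as well, from 1 higher and 3 lower of 13839 to 43 higher and 156 lower of 14907 and to 167 higher and 169 lower of 13626, and DESeq2 called 108 higher and 216 lower of 11448. These comparisons share libraries with those above, so their values are set side by side for each gene and no overlap between them was computed.

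**Figure D3:**
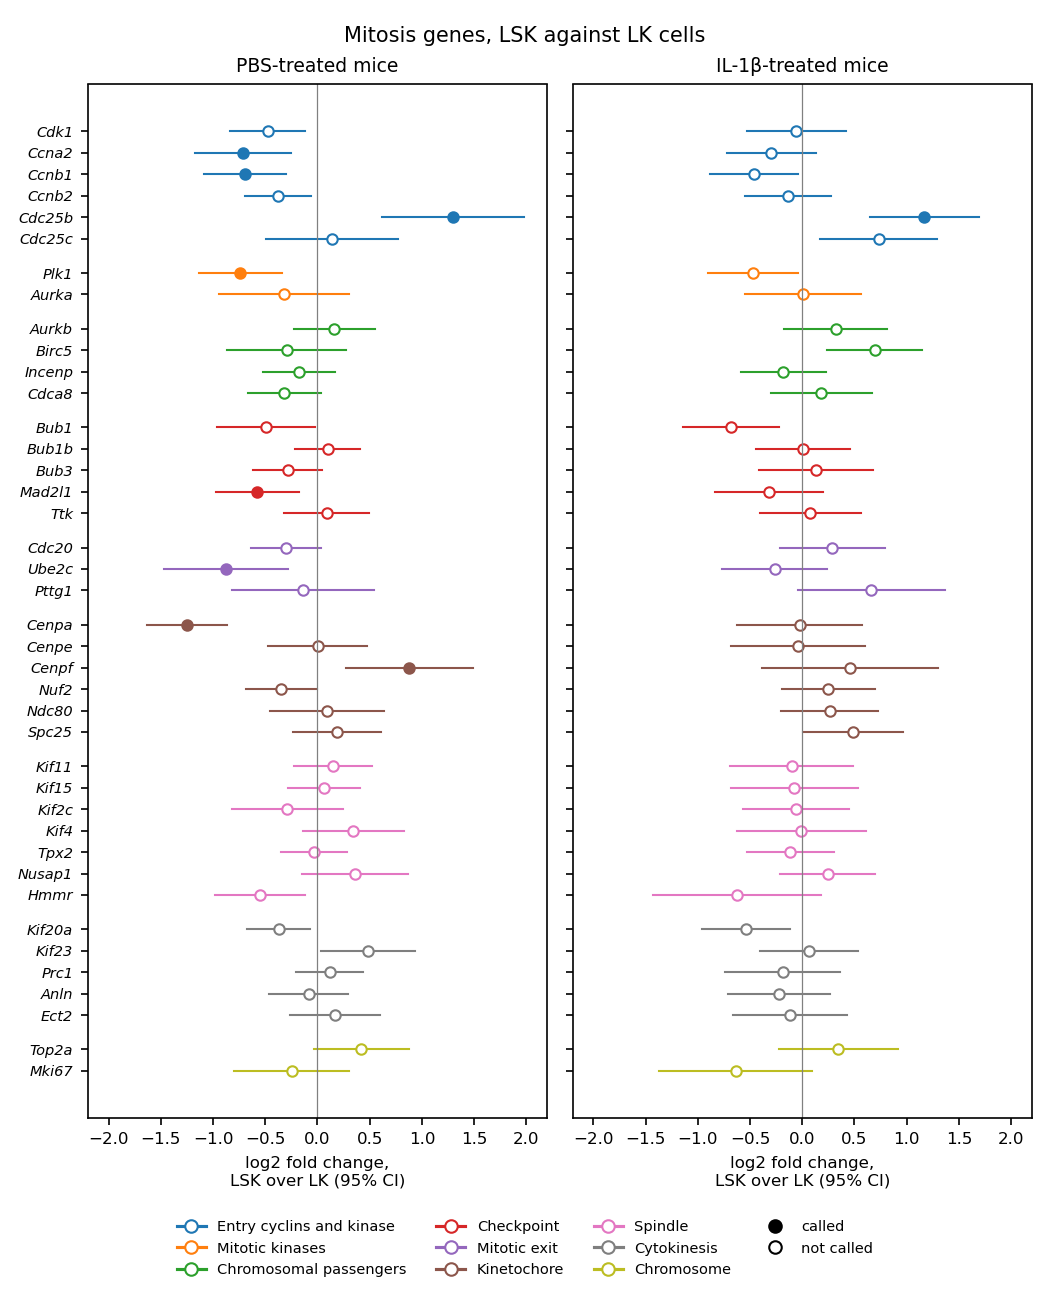
Log2 fold change of LSK over LK cells for each mitosis gene, with its 95% confidence interval, in PBS-treated (3 libraries against 3) and IL-1β-treated mice (2 against 2); filled points were called and colours mark role groups. With PBS, Cdc25b and Cenpf were called higher and 6 genes lower in LSK cells, and Cdc25b was called under both treatments.

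Among the entry genes in LSK cells, Ccna2 stood at 238, 138 and 199 CPM under PBS and 206 and 255 CPM under IL-1β. In LK cells it stood at 335, 301 and 284 CPM under PBS and 284 and 284 CPM under IL-1β. All LSK libraries lay below all LK libraries under either treatment, and Ccna2 was lower in LSK cells with PBS, with a log2 fold change of -0.71 (SE 0.20, adjusted p = 0.0279); with IL-1β it was -0.30 (adjusted p = 0.329). Ccnb1 stood at 136, 92.3 and 128 CPM under PBS and 146 and 137 CPM under IL-1β in LSK cells and at 203, 178 and 181 CPM under PBS and 185 and 207 CPM under IL-1β in LK cells. All LSK libraries of Ccnb1 also lay below all LK libraries within each treatment, with -0.69 (SE 0.17, adjusted p = 0.0165) with PBS and -0.47 (adjusted p = 0.146) with IL-1β. The Ccna2 call was lost without LK PBS replicate 1, 2 or 3 (adjusted p = 0.106, 0.0668 and 0.0537), and the Ccnb1 call without LK PBS replicate 1 (adjusted p = 0.0763).

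Ccnb2 stood at 112, 106 and 105 CPM under PBS and 126 and 127 CPM under IL-1β in LSK cells and at 151, 129 and 130.3 CPM under PBS and 139 and 139.8 CPM under IL-1β in LK cells. Every LSK library was below every LK library within each treatment, with a log2 fold change of -0.38 with PBS that was not called (adjusted p = 0.0653). Cdk1 stood at 107, 90.9 and 109 CPM under PBS and 119 and 159 CPM under IL-1β in LSK cells and at 160.3, 136 and 121 CPM under PBS and 140.5 and 149 CPM under IL-1β in LK cells. The LSK libraries lay below the LK libraries with PBS, with a log2 fold change of -0.48 (adjusted p = 0.0490), short of the fold threshold, and with the replicate block Cdk1 was called at -0.53 (adjusted p = 0.0495). Over the 10 settings with all libraries the adjusted p ran from 0.0300 to 0.0753. With IL-1β the log2 fold change of Cdk1 between the populations was -0.06, and the libraries overlapped.

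Cdc25b went the other way: it stood at 55.7, 109.8 and 53.4 CPM under PBS and 49.7 and 43.1 CPM under IL-1β in LSK cells and at 31.9, 24.9 and 30.3 CPM under PBS and 19.9 and 21.6 CPM under IL-1β in LK cells. PBS replicate 2 of the LSK cells stood far above the other libraries, yet all LSK libraries were above all LK libraries within each treatment. Cdc25b was higher in LSK cells, with a log2 fold change of 1.299 (SE 0.30, adjusted p = 0.0113) with PBS and 1.17 (SE 0.22, adjusted p = 0.0270) with IL-1β. Leaving out 1 library ended these calls for LK PBS replicate 2 (adjusted p = 0.0595), LK IL-1β replicate 1 (adjusted p = 0.266) and LK IL-1β replicate 2 (adjusted p = 0.206). With IL-1β against PBS it had -0.62 in LSK cells (adjusted p = 0.384) and -0.48 in LK cells (adjusted p = 0.117), with all IL-1β libraries below all PBS libraries in both. Cdc25c stood at 19.4, 34.8 and 19.6 CPM under PBS and 39.0 and 31.4 CPM under IL-1β in LSK cells and at 20.8, 25.5 and 19.2 CPM under PBS and 20.5 and 22.2 CPM under IL-1β in LK cells. Its LSK libraries overlapped the LK libraries with PBS and lay above them with IL-1β, with a log2 fold change there of 0.73 (adjusted p = 0.100) that was called with the length correction (adjusted p = 0.0461), without LSK IL-1β replicate 1 (adjusted p = 0.0398) and without replicate 2 (adjusted p = 0.000404).

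Of the mitotic kinases, Plk1 stood at 108, 77.6 and 81.4 CPM under PBS and 105 and 123 CPM under IL-1β in LSK cells and at 165, 139 and 131 CPM under PBS and 152 and 164 CPM under IL-1β in LK cells. All LSK libraries lay below all LK libraries within each treatment, and Plk1 was lower in LSK cells with PBS, with -0.74 (SE 0.18, adjusted p = 0.0133), a call lost without LK PBS replicate 1 (adjusted p = 0.0703). With IL-1β the value was -0.47 (adjusted p = 0.149). Aurka stood at 70.3, 117 and 54.3 CPM under PBS and 89.8 and 136 CPM under IL-1β in LSK cells and at 115, 90.1 and 89.8 CPM under PBS and 104 and 119.5 CPM under IL-1β in LK cells. The groups overlap in each of these comparisons, with -0.32 for LSK against LK cells with PBS and 0.51 for IL-1β in LSK cells.

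In the passenger complex, Aurkb stood at 153, 201 and 136 CPM under PBS and 159.7 and 224 CPM under IL-1β in LSK cells and at 143, 137 and 148 CPM under PBS and 158 and 148 CPM under IL-1β in LK cells. Its populations overlapped with PBS, with a log2 fold change of 0.16. Cdca8 stood at 129, 140.5 and 114 CPM under PBS and 159 and 199 CPM under IL-1β in LSK cells and at 173, 141 and 153 CPM under PBS and 139.9 and 175 CPM under IL-1β in LK cells, with -0.32 for LSK against LK cells with PBS (adjusted p = 0.147). In LSK cells all IL-1β libraries of Cdca8 lay above all PBS libraries, by 0.52 (adjusted p = 0.275). Birc5 stood at 78.4, 148 and 87.6 CPM under PBS and 175 and 206 CPM under IL-1β in LSK cells and at 145, 124 and 108 CPM under PBS and 108 and 127 CPM under IL-1β in LK cells. PBS replicate 2 of the LSK cells was far above the other 2, and both IL-1β libraries were above all 3. The log2 fold change of Birc5 with IL-1β was 0.89 in LSK cells (adjusted p = 0.189, 95% CI 0.20 to 1.59), the smallest adjusted p of the 40, and without PBS replicate 2 it was 1.26 and called (adjusted p = 0.0366), in a fit that called 280 higher and 200 lower of 12675 genes instead of 42 higher and 41 lower of 13132. In LK cells it was -0.09 (adjusted p = 0.731). Between the populations under IL-1β it was 0.69 (adjusted p = 0.0676), and called with the replicate block (adjusted p = 0.0296), with a range of 0.00231 to 0.183 over the settings. Incenp had log2 fold changes between -0.18 and -0.11 in the 4 comparisons of sorted cells.

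Among the checkpoint genes, Mad2l1 stood at 87.3, 70.8 and 107 CPM under PBS and 76.9 and 111 CPM under IL-1β in LSK cells and at 136, 127 and 124 CPM under PBS and 116 and 118 CPM under IL-1β in LK cells. All LSK libraries were below all LK libraries within each treatment, and Mad2l1 was lower in LSK cells with PBS, with a log2 fold change of -0.58 (SE 0.18, adjusted p = 0.0353). The call did not hold without LSK PBS replicate 1 (adjusted p = 0.0777) or 2 (log2 fold change -0.45), nor without LK PBS replicate 1, 2 or 3 (adjusted p = 0.127, 0.0857 and 0.0762). Bub1b stood at 201, 180.1 and 164 CPM under PBS and 177 and 147 CPM under IL-1β in LSK cells and at 171, 162 and 164 CPM under PBS and 155 and 168 CPM under IL-1β in LK cells. It varied little between all of these libraries, and its log2 fold changes ran from -0.13 with IL-1β in LSK cells to 0.10 between LSK and LK cells with PBS. Bub1 stood at -0.49 and -0.68 on the log2 scale for LSK against LK cells with PBS and with IL-1β (adjusted p = 0.100 and 0.0724), and Bub3 and Ttk were not called in any comparison.

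Of the genes of mitotic exit, Ube2c stood at 96.6, 47.0 and 78.8 CPM under PBS and 91.6 and 129.6 CPM under IL-1β in LSK cells and at 162, 117 and 119 CPM under PBS and 136 and 129 CPM under IL-1β in LK cells. With PBS all LSK libraries lay below all LK libraries, with replicate 2 lowest, and Ube2c was lower in LSK cells, with a log2 fold change of -0.88 (SE 0.26, adjusted p = 0.0336). This call was lost without LSK PBS replicate 3 (adjusted p = 0.0565) and without LK PBS replicate 1, 2 or 3 (adjusted p = 0.130, 0.0584 and 0.0606). Cdc20 stood at 155, 194 and 165 CPM under PBS and 219.6 and 304 CPM under IL-1β in LSK cells and at 212, 192 and 213 CPM under PBS and 196 and 233 CPM under IL-1β in LK cells. In LSK cells both IL-1β libraries were above all PBS libraries, by 0.65 on the log2 scale (adjusted p = 0.217), and in LK cells the treatments overlapped at 0.06. Pttg1 stood at 13.5, 27.4 and 14.4 CPM under PBS and 23.9 and 40.2 CPM under IL-1β in LSK cells and at 19.7, 20.6 and 19.3 CPM under PBS and 21.5 and 18.5 CPM under IL-1β in LK cells. Its populations overlapped with PBS, and it was not called in any comparison with all libraries.

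In the kinetochore group Cenpa stood at 83.5, 101 and 107 CPM under PBS and 122 and 201 CPM under IL-1β in LSK cells and at 243, 245 and 189 CPM under PBS and 152 and 176 CPM under IL-1β in LK cells. With PBS every LSK library was below every LK library, and with IL-1β the populations overlapped. Cenpa was lower in LSK cells with PBS, with a log2 fold change of -1.25 (SE 0.17, adjusted p = 0.00114), the smallest adjusted p of the 40, and it was called without any of the 6 libraries in turn. With IL-1β the difference was -0.03 (adjusted p = 0.960). With IL-1β against PBS it had 0.77 in LSK cells (adjusted p = 0.196), where both IL-1β libraries lay above the PBS libraries, and -0.46 in LK cells (adjusted p = 0.0745), where both lay below.

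Cenpf stood at 183, 182 and 99.9 CPM under PBS and 138 and 61.5 CPM under IL-1β in LSK cells and at 105, 78.0 and 64.0 CPM under PBS and 72.3 and 74.5 CPM under IL-1β in LK cells. LSK PBS replicate 3 lay under the highest LK library, and Cenpf was higher in LSK cells with PBS by 0.88 (SE 0.27, adjusted p = 0.0355). Leaving out LSK PBS replicate 1 or 2 ended the call (adjusted p = 0.128 and 0.0743), as did leaving out LK PBS replicate 2 or 3 (adjusted p = 0.137 and 0.118). Spc25 stood at 46.4, 46.0 and 37.0 CPM under PBS and 56.2 and 50.5 CPM under IL-1β in LSK cells and at 41.1, 33.4 and 36.3 CPM under PBS and 37.5 and 39.1 CPM under IL-1β in LK cells. Ndc80 stood at 52.4, 29.1 and 50.9 CPM under PBS and 49.1 and 48.8 CPM under IL-1β in LSK cells and at 42.6, 37.5 and 41.2 CPM under PBS and 42.4 and 39.2 CPM under IL-1β in LK cells. With PBS the populations overlap for both, and neither was called, with 0.19 and 0.09 for LSK against LK cells, and Cenpe and Nuf2 had 0.00 and -0.34.

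None of the 7 spindle genes was called in the sorted cells by edgeR, with 1 of 7 at an unadjusted p under 0.05 in LSK against LK cells with PBS, where DESeq2 called Hmmr. Hmmr stood at 86.3, 57.3 and 65.9 CPM under PBS and 78.3 and 38.5 CPM under IL-1β in LSK cells and at 114, 92.4 and 93.4 CPM under PBS and 80.3 and 102 CPM under IL-1β in LK cells. The LSK libraries were below the LK libraries within each treatment, with -0.55 with PBS (adjusted p = 0.0542), and Hmmr was called with the replicate block at -0.62 (adjusted p = 0.0254) and without LSK PBS replicate 1 (adjusted p = 0.0245). Over the 10 settings with all libraries the adjusted p ran from 0.0160 to 0.132. Tpx2 stood at 192, 186 and 165 CPM under PBS and 189 and 168 CPM under IL-1β in LSK cells and at 186, 168 and 189.7 CPM under PBS and 194 and 193 CPM under IL-1β in LK cells, nearly level across all groups. Kif15 stood at 119, 126 and 97.4 CPM under PBS and 133 and 83.8 CPM under IL-1β in LSK cells and at 108, 110.2 and 102 CPM under PBS and 108 and 122 CPM under IL-1β in LK cells. Its groups overlap, and for the rest of the group the log2 fold changes with IL-1β ran from -0.63 (Kif4) to 0.03 (Kif2c) in LSK cells.

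Of the cytokinesis genes, Kif20a stood at 113, 104 and 100.04 CPM under PBS and 87.1 and 91.9 CPM under IL-1β in LSK cells and at 137, 132 and 130.4 CPM under PBS and 128 and 133 CPM under IL-1β in LK cells. Every LSK library was below every LK library within each treatment, with -0.37 (adjusted p = 0.0618) with PBS and -0.54 (adjusted p = 0.103) with IL-1β. Kif23 stood at 103, 67.3 and 84.3 CPM under PBS and 66.7 and 56.6 CPM under IL-1β in LSK cells and at 59.6, 68.3 and 50.6 CPM under PBS and 59.5 and 59.0 CPM under IL-1β in LK cells. Prc1 stood at 144, 141 and 119 CPM under PBS and 122 and 85.0 CPM under IL-1β in LSK cells and at 125, 122 and 116 CPM under PBS and 112 and 126 CPM under IL-1β in LK cells. The populations overlap with PBS for both, and neither was called, with 0.48 and 0.12 between the populations with PBS. Ect2 had 0.31 with IL-1β in LK cells (adjusted p = 0.124), the highest of the 40 there, and Anln stayed between -0.22 and -0.06 in the 4 comparisons of sorted cells.

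Of the chromosome genes, Mki67 stood at 876, 499 and 537 CPM under PBS and 435 and 221 CPM under IL-1β in LSK cells and at 780.3, 838 and 600.2 CPM under PBS and 503 and 524 CPM under IL-1β in LK cells. In both populations all IL-1β libraries lay below all PBS libraries, which held for 22.8% of all genes tested in LSK cells and 22.4% in LK cells. The log2 fold change with IL-1β was -0.91 in LSK cells (adjusted p = 0.235, 95% CI -1.73 to -0.09) and -0.52 in LK cells (adjusted p = 0.0617, 95% CI -0.86 to -0.18). Neither was called by edgeR as set out above, while in LK cells Mki67 was called lower with no filter, the replicate block or the length correction. Top2a stood at 925, 944 and 614 CPM under PBS and 843 and 549.7 CPM under IL-1β in LSK cells and at 637, 602 and 571 CPM under PBS and 529 and 571 CPM under IL-1β in LK cells. With PBS, LSK replicates 1 and 2 were above all LK libraries and replicate 3 was among them, with 0.42 (adjusted p = 0.138).

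Counts of called mitosis genes in LSK against LK cells moved with single libraries. With PBS, 3 were called higher and 8 lower without LSK PBS replicate 2, among them Birc5 (adjusted p = 0.0129), Kif23 (adjusted p = 0.0179) and Nusap1 (adjusted p = 0.0239), while 2 and 1 were called without LK PBS replicate 1, 0 and 3 without LK PBS replicate 2, and 1 and 3 without LK PBS replicate 3. Leaving out LSK PBS replicate 1 gave 1 and 7, and leaving out LSK PBS replicate 3 gave 3 and 5. All genes moved too, from 2345 higher and 1635 lower of 12737 with all libraries to 2796 higher and 2169 lower of 13301 without LSK PBS replicate 2, 1734 higher and 1335 lower of 13100 without replicate 1 and 2002 higher and 1778 lower of 13063 without replicate 3. Without LK PBS replicate 1, 2 and 3 they were 1302 higher and 843 lower of 13322, 1318 higher and 996 lower of 13134 and 2021 higher and 1212 lower of 13309. Under IL-1β, 6 were called higher and 3 lower without LSK replicate 1, 6 and 5 without LSK replicate 2, and 0 and 0 without either LK library, where the lone library was assumed to vary like the other group. All genes moved as well: 1976 were called higher and 2102 lower of 11993 without LSK replicate 1, and 2023 and 2147 of 12465 without LSK replicate 2, so that the shares of the mitosis genes were near or under those of all genes. With the replicate block, 2 were called higher and 8 lower with PBS, and 2 higher and 1 lower under IL-1β, the latter Mki67 (adjusted p = 0.0352), where the block called 2158 higher and 1985 lower of 13500 genes and 1013 higher and 1044 lower of 11743. Over all settings with all libraries under IL-1β, Birc5 and Cdc25c were called higher in at least 1 beside Cdc25b, and Plk1, Bub1, Hmmr, Kif20a and Mki67 lower.

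Within the mitosis genes, the value in LSK cells with IL-1β went with gene length. The 7 genes shorter than 3000 bases, Cdc20, Ccnb2, Plk1, Aurkb, Ube2c, Aurka and Pttg1, had a median log2 fold change of 0.51, and the 8 longer than 8000 bases, among them Mki67, Cenpf and Top2a, had -0.22. Over all genes tested the medians were 0.25 for the short and -0.39 for the long, so that short genes had the higher median in both sets, and a difference between the sets was not tested. In LK cells the medians were 0.06 and -0.14 for the mitosis genes and -0.02 and -0.01 for all genes. Per library, long genes lay -0.39 log2 units from their mean over the sorted libraries in IL-1β replicate 2 of the LSK cells, the shallowest library, and 0.34 units in PBS replicate 1. With a correction for length, chosen after seeing the data, edgeR called 0 mitosis genes in LSK cells and 1 lower in LK cells, Mki67 (adjusted p = 0.0488). In LSK against LK cells with PBS the correction ended the calls of Cenpf (adjusted p = 0.206) and Ube2c (adjusted p = 0.0623) and added Cdk1 and Hmmr (adjusted p = 0.0359 and 0.0340).

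**Figure D4:**
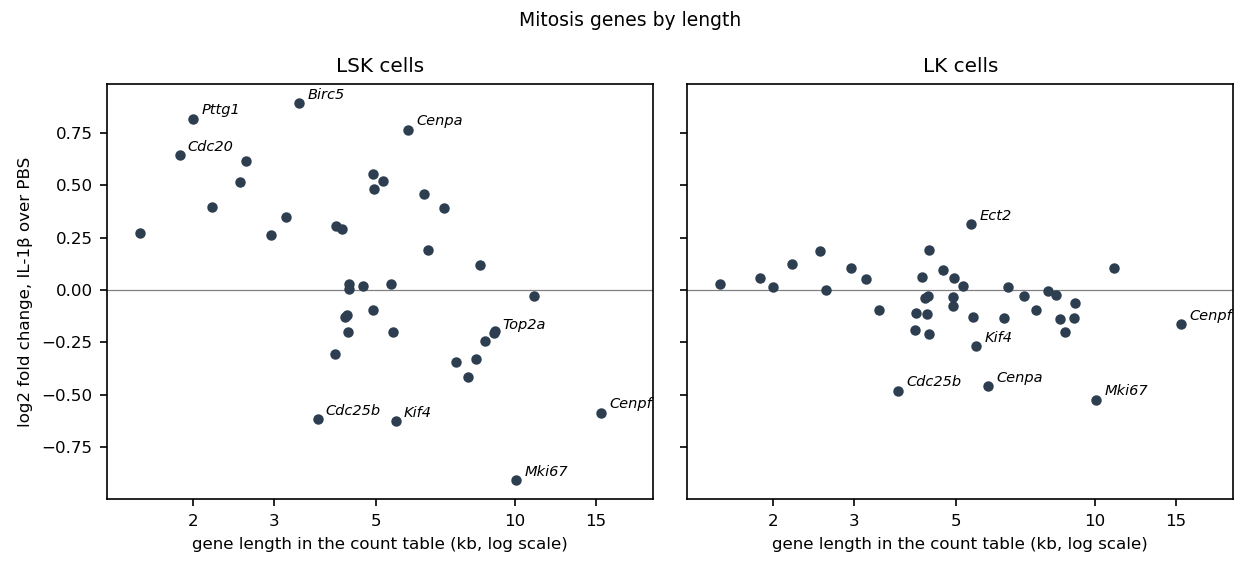
Log2 fold change of IL-1β over PBS for each mitosis gene against its length in the count table (kilobases, log scale), in LSK and LK cells; each point is 1 gene. In LSK cells the short genes, such as Cdc20 and Pttg1, lie above 0 and the long genes Cenpf and Mki67 below, while in LK cells the medians of short and long genes are 0.06 and -0.14.

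Other cell cycle genes in the sorted cells were counted in the same lists, beside 2.57% of all genes called lower and 6.77% higher with IL-1β in LK cells. With IL-1β in LSK cells, 0 genes of the 7 lists were called by edgeR. At an unadjusted p under 0.05 there were 3 of 44 DNA replication genes, 3 of 26 further kinetochore genes, 3 of 20 centrosome and spindle genes, 2 of 17 regulators, 1 of 8 CDK inhibitors and D cyclins, and 0 of 18 condensin and cohesin and 0 of 16 anaphase-promoting complex genes. In LK cells 3 of 8 CDK inhibitors and D cyclins tested were called lower and 0 higher. Cdkn1a, an inhibitor of cyclin-dependent kinases, stood at 11.7, 11.2 and 13.5 CPM under PBS and 5.85 and 4.02 CPM under IL-1β in LK cells, and Ccnd1 at 18.0, 14.4 and 20.9 CPM under PBS and 9.70 and 6.92 CPM under IL-1β. For both, all IL-1β libraries lay below all PBS libraries, with -1.29 (SE 0.27, adjusted p = 0.0215) and -1.08 (SE 0.26, adjusted p = 0.0325). Cep55, a protein of the final cut between daughter cells, rose in LK cells from 11.1, 13.5 and 19.0 CPM with PBS to 31.6 and 33.1 CPM with IL-1β, by 1.16 (SE 0.23, adjusted p = 0.0179); it was the 1 of 20 centrosome and spindle genes that was called. Anapc10, of the anaphase-promoting complex, fell from 13.97, 13.97 and 14.1 CPM to 7.97 and 7.56 CPM, with -0.85 (SE 0.21, adjusted p = 0.0370), as 1 of 16. Tfdp2, a partner of E2F factors, fell from 66.2, 78.4 and 90.1 CPM to 47.7 and 53.1 CPM, with -0.63 (SE 0.15, adjusted p = 0.0335), as 1 of 17 regulators. None of 44 DNA replication genes was called in LK cells by edgeR, with 14 at an unadjusted p under 0.05 and a median of -0.19, and none of 18 condensin and cohesin genes or of 26 further kinetochore genes was, with 0 and 4 at that p.

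In LSK against LK cells with PBS, 12 of 44 DNA replication genes were called lower in LSK cells and 1 higher, with a median of -0.41. Rrm2 stood at 171, 142 and 143 CPM in LSK cells and 403, 413 and 307 CPM in LK cells, and Cdc6, a loader of the replicative helicase, at 87.4, 72.3 and 77.7 CPM and 186, 187 and 154 CPM. Their populations did not overlap, with -1.33 (SE 0.17, adjusted p = 0.000885) and -1.18 (SE 0.15, adjusted p = 0.000898). Of 8 CDK inhibitors and D cyclins tested, 6 were called higher in LSK cells and 0 lower. Ccnd1 stood at 80.9, 66.3 and 55.4 CPM in LSK cells and 18.0, 14.4 and 20.9 CPM in LK cells, and Cdkn1c, an inhibitor known from quiescent stem cells, at 6.51, 8.14 and 4.43 CPM and 0.719, 0.464 and 0.503 CPM. Both were several-fold higher in every LSK library, with 1.89 (SE 0.23, adjusted p = 0.000728) and 3.46 (SE 0.53, adjusted p = 0.00195).

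Most of the further lists were near or under the shares of all genes in this comparison, which were 12.8% called lower and 18.4% called higher. Among 17 regulators of mitotic genes, 3 were called lower in LSK cells with PBS and 2 higher. E2f4, the E2F factor of repressor complexes, stood at 146, 118 and 127 CPM in LSK cells and 367, 375 and 334 CPM in LK cells. Mybl2, an activator of mitotic genes, stood at 89.5, 63.9 and 92.8 CPM and 141, 167 and 145 CPM. Neither overlapped, with -1.50 (SE 0.15, adjusted p = 0.000319) and -0.91 (SE 0.18, adjusted p = 0.00562). Of 20 centrosome and spindle genes, 3 were called higher and 1 lower: Cep55 stood at 46.1, 75.2 and 43.6 CPM in LSK cells against 11.1, 13.5 and 19.0 CPM in LK cells (log2 fold change 1.89, SE 0.30, adjusted p = 0.00224), and Kif22 at 96.8, 76.9 and 104 CPM in LSK cells against 137, 131 and 127 CPM in LK cells (log2 fold change -0.54, SE 0.16, adjusted p = 0.0281). A total of 3 of 26 further kinetochore genes were called lower and 0 higher, among them Ska1, a microtubule-binding subunit, at 10.6, 11.2 and 13.7 CPM in LSK cells against 26.6, 26.0 and 16.8 CPM in LK cells (log2 fold change -0.998, SE 0.26, adjusted p = 0.0183) and Zwilch, a checkpoint protein, at 40.7, 19.3 and 44.7 CPM in LSK cells against 71.4, 87.2 and 59.5 CPM in LK cells (log2 fold change -1.09, SE 0.30, adjusted p = 0.0256). Of 18 condensin and cohesin genes 2 were called higher and 1 lower. The 2 were the cohesin genes Stag1 at 151, 161 and 120.3 CPM in LSK cells against 97.9, 94.9 and 99.9 CPM in LK cells (log2 fold change 0.53, SE 0.16, adjusted p = 0.0304) and Smc1a at 447, 578 and 435 CPM in LSK cells against 290.2, 282 and 362 CPM in LK cells (log2 fold change 0.61, SE 0.18, adjusted p = 0.0334). Of 16 anaphase-promoting complex genes 1 was called lower, Anapc10 at 8.56, 5.97 and 9.26 CPM in LSK cells against 13.97, 13.97 and 14.1 CPM in LK cells (log2 fold change -0.85, SE 0.28, adjusted p = 0.0443).

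Under IL-1β, LSK cells had 3 of 8 CDK inhibitors and D cyclins called higher than in LK cells and 0 lower, beside 4.18% of all genes called higher and 4.14% lower. Ccnd1 stood at 62.1 and 38.2 CPM in LSK cells and 9.70 and 6.92 CPM in LK cells, and Cdkn1a at 18.7 and 15.2 CPM and 5.85 and 4.02 CPM. Every LSK library was above every LK library, with 2.60 (SE 0.34, adjusted p = 0.0115) and 1.78 (SE 0.35, adjusted p = 0.0289). Of 44 DNA replication genes 1 was called higher, Lig1, a DNA ligase, at 501 and 495 CPM in LSK cells against 262 and 289 CPM in LK cells (log2 fold change 0.86, SE 0.17, adjusted p = 0.0309). Of 16 anaphase-promoting complex genes 1 was called higher, Anapc13 at 48.9 and 70.1 CPM in LSK cells against 25.5 and 31.4 CPM in LK cells (log2 fold change 1.06, SE 0.25, adjusted p = 0.0493), and of 17 regulators 1 was called lower, E2f8 at 80.0 and 49.3 CPM in LSK cells against 153 and 150.2 CPM in LK cells (log2 fold change -1.21, SE 0.26, adjusted p = 0.0382). Of 20 centrosome and spindle genes 2 were called higher, Fam83d at 23.5 and 23.5 CPM in LSK cells against 9.83 and 10.5 CPM in LK cells (log2 fold change 1.22, SE 0.26, adjusted p = 0.0376) and Cep55 at 56.1 and 62.5 CPM in LSK cells against 31.6 and 33.1 CPM in LK cells (log2 fold change 0.87, SE 0.20, adjusted p = 0.0443). None of the condensin and cohesin genes or of the further kinetochore genes was called by edgeR, with 4 of 18 and 6 of 26 at an unadjusted p under 0.05. For the difference of the IL-1β response between LSK and LK cells, 0 genes of the 7 lists were called by edgeR. At an unadjusted p under 0.05 there were 3 of 44 DNA replication genes, 3 of 17 regulators, 2 of 26 further kinetochore genes, 2 of 8 CDK inhibitors and D cyclins, 1 of 20 centrosome and spindle genes, 1 of 16 anaphase-promoting complex genes and 0 of 18 condensin and cohesin genes.

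As background, mitosis genes share promoter elements. Many carry a CHR element, bound by the DREAM complex in resting cells and by complexes of B-Myb and FoxM1 in dividing cells, often next to CCAAT boxes bound by NF-Y, whereas genes of DNA replication carry E2F sites more often. Promoters from RefSeq on GRCm38.p6, from 250 bases before to 50 bases after each gene's start, were searched on both strands for the CHR core (TTTGAA or TTCGAA, the latter its own reverse complement), for CCAAT, and for an E2F core (TTCCCGC, also when a T precedes it, or TTTCGCGC with C or G as its 4th base). A window was found for 34 of the 40 genes and not for Ccna2, Cdc25c, Aurkb, Incenp, Tpx2 and Kif20a. A match is a description of letters and not a bound site, and no match says only that the letters are not in the window.

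The CHR core was present in 27 of 34 mitosis genes (79.4%), beside 21.7% of the 27025 genes with a window and 17.1% of 35 DNA replication genes. CCAAT was present in 25 of 34 (73.5%), beside 41.1% of all genes and 65.7% of the DNA replication genes. The pair of CHR core and CCAAT was present in 23 of 34 (67.6%), beside 8.61% and 14.3%. The E2F core was present in 2 of 34 (5.88%), Cdk1 and Kif15, beside 6.1% and 57.1%. None of the 3 was found in 5 of 34 (14.7%), Nuf2, Nusap1, Mad2l1, Pttg1 and Birc5, beside 44.0% of all genes and 11.4% of the DNA replication genes. Birc5 and Mki67, the genes with the smallest adjusted p in the MSC cultures, were thus on opposite sides, with 0 motifs and with 2 CHR cores and 3 CCAAT matches in their windows. Over all 32851 windows, counting each start of a gene, the shares were 19.2% for the CHR core, 37.4% for CCAAT and 5.33% for the E2F core.

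For 7 genes, the 150 bases directly before the start are printed, since they show the elements that most mitosis genes share and 1 gene that lacks them. Capitals mark the motifs named above on either strand, so that TTCAAA and ATTGG are the CHR core and CCAAT read on the other strand. Cdk1 (chr10:69352913-69353062 on the minus strand), the mitotic kinase, carries all 3 kinds. Cdc20 (chr4:118437344-118437493 on the minus strand), the highest of the 40 in mean TPM over the sorted libraries, has a CHR core between CCAAT matches. Ube2c (chr2:164769779-164769928 on the plus strand), Prc1 (chr7:80294326-80294475 on the plus strand, the second of its starts) and Mki67 (chr7:135716380-135716529 on the minus strand) fell in the MSC cultures. Top2a (chr11:99024190-99024339 on the minus strand) has the most matches, 4 CHR cores and 6 CCAAT in its window. Pttg1 (chr11:43425982-43426131 on the minus strand), the 1 gene not lower in the cultures than in sorted cells, has none. Nuf2, Nusap1, Mad2l1 and Birc5 also have none, and their ratios of mean sorted to mean culture TPM were 12.6, 15.4, 8.02 and 11.5.
Cdk1: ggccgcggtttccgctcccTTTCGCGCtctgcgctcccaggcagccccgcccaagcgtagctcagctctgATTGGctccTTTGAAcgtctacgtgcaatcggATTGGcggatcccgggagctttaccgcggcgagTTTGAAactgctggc
Cdc20: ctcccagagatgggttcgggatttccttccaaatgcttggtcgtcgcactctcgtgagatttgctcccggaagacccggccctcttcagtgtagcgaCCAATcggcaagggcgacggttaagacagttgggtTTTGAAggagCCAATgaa
Ube2c: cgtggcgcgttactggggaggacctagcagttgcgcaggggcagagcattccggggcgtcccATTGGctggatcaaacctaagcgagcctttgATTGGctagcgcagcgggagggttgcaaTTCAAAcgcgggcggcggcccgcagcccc
Prc1: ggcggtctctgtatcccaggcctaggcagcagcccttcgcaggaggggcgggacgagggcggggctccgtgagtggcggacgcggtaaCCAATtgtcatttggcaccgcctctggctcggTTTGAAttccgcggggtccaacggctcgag
Mki67: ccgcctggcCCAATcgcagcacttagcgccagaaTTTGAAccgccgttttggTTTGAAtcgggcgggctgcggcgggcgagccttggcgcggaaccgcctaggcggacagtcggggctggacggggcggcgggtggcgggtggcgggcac
Top2a: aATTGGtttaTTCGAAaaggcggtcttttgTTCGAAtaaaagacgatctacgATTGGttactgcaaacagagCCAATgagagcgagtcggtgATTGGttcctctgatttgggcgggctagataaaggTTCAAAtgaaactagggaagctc
Pttg1: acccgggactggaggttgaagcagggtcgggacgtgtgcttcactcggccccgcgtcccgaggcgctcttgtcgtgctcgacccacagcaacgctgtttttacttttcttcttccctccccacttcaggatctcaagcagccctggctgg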

How the data were processed

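The deposited tables give counts of read pairs per gene, which the authors made before deposit. Per the submitters' processing notes, reads were trimmed with fastp 0.20.0, aligned to GRCm38 with HISAT2 2.0.1, sorted with SAMtools 1.10 and counted as reverse-stranded read pairs with featureCounts 2.0.2 and compared with DESeq2. These raw counts were used here, and no reads were processed again. The header of the MSC table names a further library for which there is no column of counts, and it was not analysed. Symbols come from the GENCODE table of the same build, and each listed symbol was matched to 1 identifier.

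Tests used edgeR 4.0.16 (filterByExpr, TMM, robust quasi-likelihood F test) with limma 3.58.1 in R 4.3.3, with adjustment by Benjamini and Hochberg over all genes tested, and DESeq2 1.42.0 as the other tool. Tables and figures used Python 3.11.15 with pandas 2.3.3, numpy 2.4.6 and matplotlib 3.10.9. Each of the 3 comparisons of IL-1β with PBS was fitted within its population, LSK was compared with LK within each treatment, and the difference of the response was an interaction over the 10 sorted libraries, called at an adjusted p under 0.05. The test was also tried on simulated counts, whose spread between libraries was taken from the fits to these data. The groups, the comparisons and most alternatives were chosen before the data were examined; the members and the other lists were chosen with earlier results of these data known. The length correction, a smooth trend over gene length taken out of each library, and TPM without 2 short RNAs were added after seeing the data.

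Replicate numbers may pair LSK with LK libraries, which the labels do not say. Deviations from the group mean correlated between libraries of the same number with r of 0.211, 0.128 and 0.472 under PBS, and between different numbers with r of -0.381 to 0.162, the highest for LSK replicate 2 with LK replicate 1, above LSK replicate 2 with LK replicate 2. Under IL-1β, r was 0.100 for the same number, which is 1 value by construction with 2 libraries. The replicate number was used as a block in an alternative. Between PBS and IL-1β libraries of the same number, r was 0.126 and -0.0350 in LSK cells and -0.102 and 0.0333 in LK cells, so these numbers show no pairing across treatments. In the MSC cultures the block could not be fitted, since the groups share only number 2.

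Genes were named by rule: in each role group the gene with the highest mean TPM over the sorted libraries, with the smallest p for LSK against LK under PBS, with the smallest p for IL-1β against PBS in any population, and those called with IL-1β in LSK cells or MSC cultures. Other genes singled out were chosen after their values were seen. From each of 7 lists of other cell cycle genes (condensin and cohesin, anaphase-promoting complex, further kinetochore, centrosome and spindle, regulators, DNA replication, CDK inhibitors and D cyclins) the called genes with the 2 smallest p per comparison are named. The 9 marker lists are stem cell, progenitor, erythroid, neutrophil granule, megakaryocyte, lymphoid, macrophage, mesenchymal and endothelial. Promoter windows are from RefSeq on GRCm38.p6.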

Additional observations from a re-analysis of the deposited data

How the results depend on the processing

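Each result was recomputed under other settings: DESeq2, other scaling factors, other filters, a joint fit of the 10 sorted libraries, the replicate block, the length correction, and each library left out in turn. Values below are numbers of mitosis genes called, and the cause of each difference was not tested.

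IL-1β in LSK cells: 0 were called higher, and 1 with the length correction together with the replicate block, Cenpa; leaving out 1 library gave 0 to 1. IL-1β in LK cells: 0 were called lower, 1 with DESeq2, 1 with no filter, 2 with the replicate block, 1 with the length correction, 2 with the length correction together with the replicate block, and 0 to 2 with 1 library left out. Of all genes, 42 of 13132 were called higher in LSK cells, and 346 of 14269 with the length correction together with the replicate block. In LK cells 330 of 12835 were called lower, 459 of 12292 with DESeq2 and 693 of 22186 with no filter. They were 884 of 13596 with the block, 331 with the length correction and 878 of 13596 with both. Over the settings with all libraries the median log2 fold change of the mitosis genes ran from -0.01 to 0.12 in LSK cells, where its sign changed with the joint fit.

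IL-1β in MSC cultures: 13 were called lower, 13 with DESeq2, 14 with its size factors, 17 with upper-quartile factors, 19 with no filter, 13 with at least 10 reads in 2 libraries and 14 with the length correction, which loses Cdc20. All genes called lower were 570 of 13239, 673 of 13355 with DESeq2 and 609 with its size factors. With upper-quartile factors they were 831, and with no filter 915 of 22527. With at least 10 reads in 2 libraries they were 572 of 13621, and with the length correction 420. The median of the mitosis genes was negative in each of these settings. Leaving out 1 library gave 0 to 25, with 0 when either IL-1β culture was left out, where the lone culture was assumed to vary like the other group. The replicate block could not be fitted there.

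LSK against LK under PBS: 2 were called higher, 1 with the length correction, 1 with the length correction together with the replicate block, and 0 to 3 with 1 library left out. There 6 were called lower, 6 with the joint fit, 8 with DESeq2, 8 with its size factors, 8 with at least 10 reads in 2 libraries, 8 with the replicate block, 8 with the length correction together with the replicate block, 7 with no filter, 7 with the length correction, 5 with upper-quartile factors, which lose Mad2l1, and 1 to 8 with 1 library left out. All genes called lower were 1635 of 12737 and 1716 of 13839 with the joint fit. With DESeq2 they were 2074 of 14686 and with its size factors 1738. They were 1877 of 13677 with at least 10 reads in 2 libraries and 1985 of 13500 with the replicate block. With no filter they were 1771 of 23304, with the length correction 1701 and with upper-quartile factors 1458. All genes called higher were 2345, and 2199 with the length correction. LSK against LK under IL-1β: 1 was called higher, 2 with DESeq2, 2 with no filter, 2 with the replicate block, 0 with the joint fit, 3 with the length correction, 3 with the length correction together with the replicate block, and 0 to 6 with 1 library left out. There 0 were called lower, 2 with no filter, 1 with the replicate block, 3 with the length correction, 5 with the length correction together with the replicate block, and 0 to 5 with 1 library left out. All genes moved as well, from 491 higher and 486 lower of 11743 to 627 and 606 of 12578 with DESeq2. With no filter they were 1070 and 1094 of 19321, and with the joint fit 295 and 314 of 13839. Of 11743, 1013 and 1044 were called with the replicate block, 962 and 1000 with the length correction, and 1423 and 1534 with both. The median of the mitosis genes there was -0.03, and 0.05 with upper-quartile factors.

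Difference of the response: 0 were called, 1 with DESeq2, 2 with no filter, and 0 to 1 with 1 library left out.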
